A study of Homo sapiens with 9 samples.

Results

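ABCG1, a membrane pump that moves cholesterol out of the cell, and 9 further genes around the liver X receptors were followed across 9 RNA sequencing libraries of 3 lines of hepatocellular carcinoma (HCC) cells. ABCG1 was selected on its higher counts in both drug-resistant lines than in the parental line, and the others were chosen by their known place in the pathway: the receptors NR1H2 and NR1H3, and the target genes ABCA1, MYLIP, SREBF1, LPCAT3, SMPDL3A, PLTP and APOE. They were found by symbol, and all 10 were present among the 20030 genes of the tables. Since the choice used the comparisons with the parental line, values of these 10 genes in those comparisons are a description without a test. For those comparisons, edgeR calls of these genes are counted only beside the share of all genes called, and nothing is read from them. Differences of these genes are tested between the resistant lines, a contrast that was not itself the basis of the choice. The same resistant libraries entered the selection of ABCG1, and members were chosen with earlier results of these data known. That test is therefore not independent of the choice.

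Liver X receptors are nuclear receptors that bind oxysterols, the oxidized forms of cholesterol, and act on DNA as pairs with a retinoid X receptor. When a cell holds excess cholesterol they turn on genes that pump it out, that load it onto lipoprotein particles, and that lower its uptake. In liver cells they also turn on SREBF1, which drives the synthesis of fatty acids. The opposite branch is led by SREBP2, which is active when sterols are scarce and raises the synthesis and the uptake of cholesterol.

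MHCC97L is an HCC cell line, and its 3 libraries came from cells without drug treatment. MHCC97L-Src was derived from it by rising doses of saracatinib, an inhibitor of SRC family kinases, until resistance to 4 μmol/L was stable, and MHCC97L-Oxa was likewise stably resistant to 2 μmol/L oxaliplatin, a platinum compound that damages DNA. Each line gave 3 libraries, and all lines grew in the same serum-containing medium. One line per drug was sequenced, so drug and line cannot be told apart. The labels do not say whether drug was present at harvest or whether the libraries of a line came from separate cultures. The study's paper speaks of 3 independent experiments for MHCC97L and MHCC97L-Src, without saying what was repeated in each. P-values therefore measure the spread between these libraries, which may be technical.

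Liver X receptor pairs bind a direct repeat of AGGTCA with 4 bases between the copies, called DR4 and spelled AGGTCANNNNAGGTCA. To show how close the members come to it near their start sites, 250 bases upstream of each start in RefSeq (GRCh38.p14) were searched on both strands for the stretch that matched most of the 12 fixed letters. The table of start sites used here matched 8 of the 10 genes, in 14 windows, and ABCG1 and SMPDL3A were not analysed here. Of all 35116 windows of this length, 0.0142% held the full DR4 and 12.1% held the half-site AGGTCA, which is part of it. The 30 bases around the best stretch of each gene are shown 5′ to 3′ on the strand of the gene, with the best stretch in capitals.
ABCA1: caggcttTGACCGATAGTAACCTctgcgct
PLTP: gacctgcGGGGCAAAGAAGGCCActtctac
NR1H3: ttgggatATGTCTTCACTGGTGAacggtct
NR1H2: ggccgcaGGCTCAGAGAAGCGCAtgaatga
APOE: tggggggTGGTCAAAAGACCTCTatgcccc
LPCAT3: tcagaccCGCCCTCTTCCTACCTtgccgcg
MYLIP: cccggggCGGCCAGGGAAACTCAgccggct
SREBF1: ggaggagGGGCCGGCTGAGGGGAgatttgt

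ABCA1 came closest, with 10 of 12 letters on the reverse strand at bases 69 to 54 upstream, read there as AGGTTACTATCGGTCA, and 2.03% of all windows matched as well or better. The bases shown lie at chr9:104928202-104928231 on the - strand. PLTP matched 9 letters in the better of its 2 windows, at chr20:45911166-45911195 on the - strand, and 16.0% of windows did as well. Its other window matched 7 letters, as 99.2% of windows did. NR1H3, NR1H2, APOE, LPCAT3 and MYLIP matched 8 letters, as 66.1% of windows did, and SREBF1 matched 7, as 99.2% did. The best of 4 windows is given for NR1H3 and of 3 for APOE, while the shares are of single windows. A full AGGTCA stood in 1 place of the NR1H3 window that holds the bases shown, and in 0 places of the other 7. These matches describe the letters of short windows only, since target genes can carry their binding sites far from the start. The GC box GGGCGG, a common promoter motif, was held by 42.6% of all windows, the E-box CACGTG by 6.34%, and the sterol element TCACNCCAC by 0.883%. Of the 8 windows that hold the bases shown, 0 held the sterol element and 1, that of ABCA1, held an E-box.

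The 9 libraries held 16970486 to 18209213 counts each. Levels are given as CPM, which scales the counts of a library by its size, here after TMM normalization. The floor of 3 counts, taken as the least that could be detected, came to 0.165 to 0.177 CPM, and it covers counting error only. Libraries of MHCC97L differed more among themselves than those of the resistant lines. The correlation of log2 CPM across genes was 0.861 to 0.956 within MHCC97L, 0.970 to 0.987 within MHCC97L-Src and 0.984 to 0.989 within MHCC97L-Oxa. MHCC97L replicate 1 stood apart: its deviation from the other libraries ran against the GC content of genes, with a Spearman's rho across genes of -0.781, compared with -0.257 to 0.698 in the other 8 libraries. The resistant lines also differed in this, with a rho of 0.541, 0.698 and 0.187 in MHCC97L-Src and 0.165 to 0.307 in MHCC97L-Oxa. The annotated spans of NR1H2, NR1H3, SREBF1, LPCAT3 and PLTP overlap 1 or 2 coding genes on the opposite strand, and the strand setting of the counting is not known, so their counts may include reads of those genes. Some values that rest on MHCC97L are therefore also given without MHCC97L replicate 1, or after a correction for GC content and gene length.

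**Figure D1:**
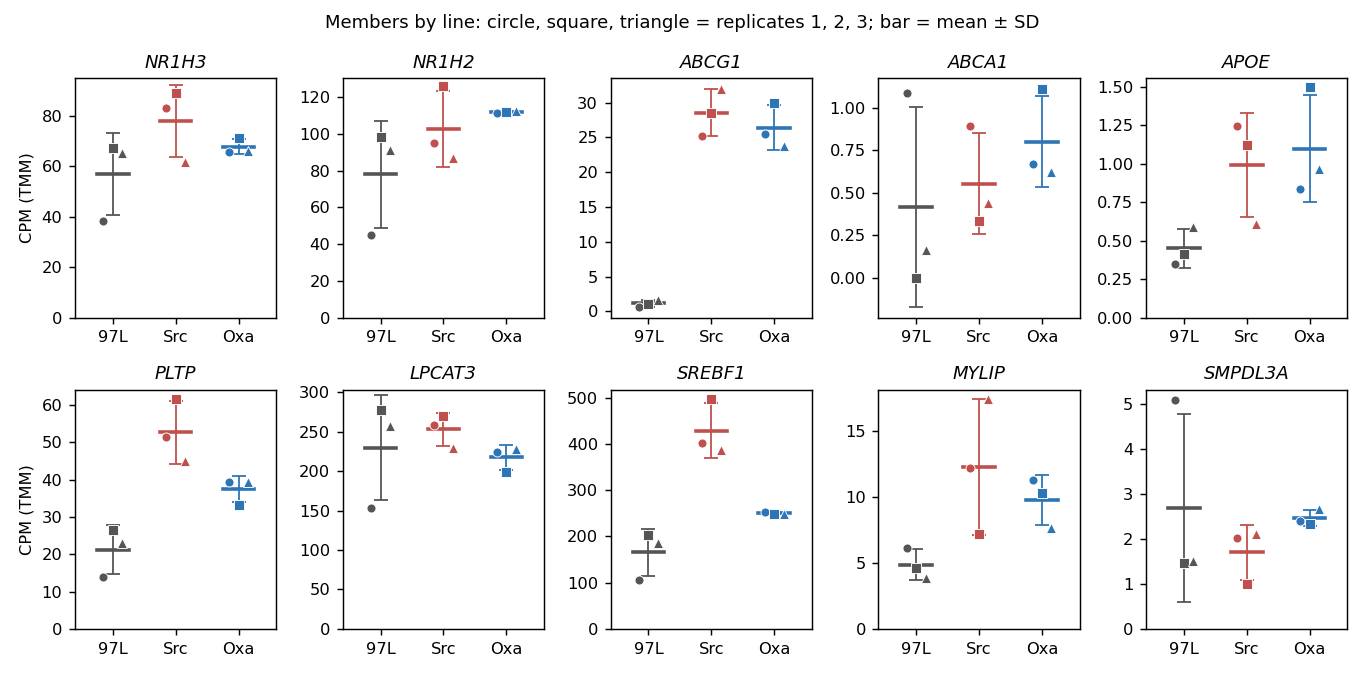
CPM (TMM, linear axes that differ between genes) of the 10 genes in MHCC97L (97L), MHCC97L-Src (Src) and MHCC97L-Oxa (Oxa), with 1 point per library and the mean ± SD of 3 libraries. ABCG1 in the 6 resistant libraries lies between 23.8 and 31.9 CPM, and in MHCC97L at 0.692 to 1.67 CPM.

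ABCG1 lies at chr21:42199689-42297244 on the + strand of GRCh38 and has 11 transcripts in GENCODE release 29, of which 7 code for protein. The parental libraries held 14, 19 and 31 counts of it, or 0.692, 1.12 and 1.67 CPM. Libraries of MHCC97L-Src held 25.2, 28.5 and 31.9 CPM, and those of MHCC97L-Oxa 25.5, 30.0 and 23.8 CPM. The parental libraries were low, above the floor in each of 3, and no resistant library came near them. In bulk RNA, more cells with a transcript and more transcript per cell cannot be told apart. The mean level was 1.16 ± 0.489 CPM in MHCC97L (SD, n = 3), 28.5 ± 3.38 in MHCC97L-Src and 26.4 ± 3.19 in MHCC97L-Oxa. Against MHCC97L the log2 fold change was 4.57 (SE 0.48) in MHCC97L-Src and 4.45 (SE 0.45) in MHCC97L-Oxa, which is 23.8-fold and 21.9-fold. After correction for GC content and length it was 4.40 and 4.33, and without MHCC97L replicate 1 it was 4.36 and 4.28.

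ABCA1, the other main cholesterol pump of the pathway and the gene with the closest DR4 letters, was near the floor. It was at 22, 0 and 3 counts in parental libraries, at 15, 5 and 8 after resistance to saracatinib and at 12, 20 and 11 after resistance to oxaliplatin. The parental libraries spanned the resistant ones, and 2 of the 3 were at or under the floor. Its mean was 0.416 ± 0.586 CPM in MHCC97L (SD, n = 3), 0.554 ± 0.296 in MHCC97L-Src and 0.800 ± 0.268 in MHCC97L-Oxa. ABCA1 was too low to be tested in MHCC97L-Src, while MHCC97L-Oxa gave a log2 fold change of 0.82 (SE 0.99). Without MHCC97L replicate 1, which held 22 of the parental counts, this value was 3.20, so 1 library set it.

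The receptor genes NR1H2 (liver X receptor beta, found in most tissues) and NR1H3 (liver X receptor alpha, prominent in liver and macrophages) were present in every library. NR1H2 was at 44.8, 98.4 and 91.5 CPM in parental libraries, at 95.3, 126 and 87.2 CPM after resistance to saracatinib and at 112, 112 and 113 CPM after resistance to oxaliplatin. Apart from MHCC97L replicate 1, which was low, parental and MHCC97L-Src libraries overlapped. NR1H3 was at 38.2, 67.2 and 65.5 CPM in parental libraries, at 83.1, 89.0 and 61.8 CPM after resistance to saracatinib and at 65.8, 71.3 and 66.3 CPM after resistance to oxaliplatin. Here too the low parental value came from replicate 1.

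For NR1H2 the log2 fold change was 0.36 (SE 0.32) in MHCC97L-Src, where it turned to -0.06 after correction for GC content and length, and 0.47 (SE 0.29) in MHCC97L-Oxa. For NR1H3 it was 0.41 (SE 0.29) and 0.20 (SE 0.26), and 0.13 and 0.01 after that correction. In FPKM, a value per transcript length, NR1H2 stood above NR1H3 in all 9 libraries. The ratio was 3.58 to 4.22 in MHCC97L, 3.08 to 3.90 in MHCC97L-Src and 4.13 to 4.65 in MHCC97L-Oxa. Mean CPM, which is not scaled by length, differed less, with NR1H2 at 78.2 and NR1H3 at 57.0 in MHCC97L. In MHCC97L-Src they were at 103 and 78.0, and in MHCC97L-Oxa at 112 and 67.8. Their lengths in GENCODE were 2380 and 2731 bases. The lengths behind FPKM are not given in the sources used here, and other lengths could change these ratios. No ratio between the receptors is therefore read from FPKM.

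Of the genes that act on lipoproteins and phospholipids, PLTP and APOE were higher in the resistant lines without overlap in CPM, and LPCAT3 was not. PLTP encodes the phospholipid transfer protein of plasma lipoproteins. It was at 13.9, 26.7 and 23.1 CPM in parental libraries, at 51.5, 61.7 and 44.9 CPM after resistance to saracatinib and at 39.4, 33.4 and 39.4 CPM after resistance to oxaliplatin. The lowest resistant library, at 33.4 CPM, was above the highest parental one. Its log2 fold change was 1.27 (SE 0.33) in MHCC97L-Src and 0.77 (SE 0.31) in MHCC97L-Oxa, and 0.85 and 0.48 after correction for GC content and length.

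APOE encodes apolipoprotein E, an acceptor of effluxed cholesterol. It was at 7, 7 and 11 counts in parental libraries, at 21, 17 and 11 after resistance to saracatinib and at 15, 27 and 17 after resistance to oxaliplatin. The groups did not overlap in CPM, although the lowest MHCC97L-Src library, at 0.607 CPM, lay just above the highest parental one, at 0.591 CPM. In FPKM these libraries lay the other way, at 0.477 and 0.482, so the groups overlapped. The log2 fold change was 1.08 (SE 0.50) and 1.22 (SE 0.46), at levels within a few times the floor. LPCAT3, which puts polyunsaturated fatty acids into membrane phospholipids, had 154, 277 and 257 CPM in MHCC97L, with group means of 253 ± 20.8 CPM in MHCC97L-Src and 217 ± 15.8 in MHCC97L-Oxa (SD, n = 3). Parental libraries lay on both sides of the resistant ones. Its log2 fold change was 0.10 (SE 0.26), turning to -0.05 after correction for GC content and length, and -0.13 (SE 0.24), turning to 0.08 without MHCC97L replicate 2.

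SREBF1 encodes SREBP1, the transcription factor that drives fatty acid synthesis. It was at 107, 204 and 185 CPM in parental libraries, at 401, 498 and 388 CPM after resistance to saracatinib and at 254, 249 and 249 CPM after resistance to oxaliplatin. The 3 lines did not overlap, and MHCC97L-Src was highest. The log2 fold change was 1.34 (SE 0.28) in MHCC97L-Src and 0.55 (SE 0.25) in MHCC97L-Oxa, and 1.00 and 0.37 after correction for GC content and length.

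MYLIP encodes the ubiquitin ligase IDOL, which acts in the control of lipoprotein uptake. It was at 6.13, 4.64 and 3.82 CPM in parental libraries, at 12.2, 7.15 and 17.4 CPM after resistance to saracatinib and at 11.3, 10.3 and 7.60 CPM after resistance to oxaliplatin. In CPM every resistant library was above every parental one, while MHCC97L-Src libraries were far apart from each other. In FPKM the groups overlapped, with MHCC97L-Src replicate 2 at 2.17 and MHCC97L replicate 1 at 2.21. The log2 fold change was 1.28 (SE 0.47) and 0.94 (SE 0.39). In contrast, SMPDL3A, a secreted phosphodiesterase and a liver X receptor target of human macrophages, had 5.09, 1.47 and 1.50 CPM in MHCC97L, 2.02, 0.993 and 2.10 CPM in MHCC97L-Src, and 2.40, 2.33 and 2.66 CPM in MHCC97L-Oxa. MHCC97L replicate 1 was above all others, and the other parental libraries lay among or below the resistant ones. Its log2 fold change of -0.71 (SE 0.63) and -0.20 (SE 0.57) turned to 0.21 and 0.78 without that library, and to 0.26 and 0.54 after correction for GC content and length.

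**Figure D2:**
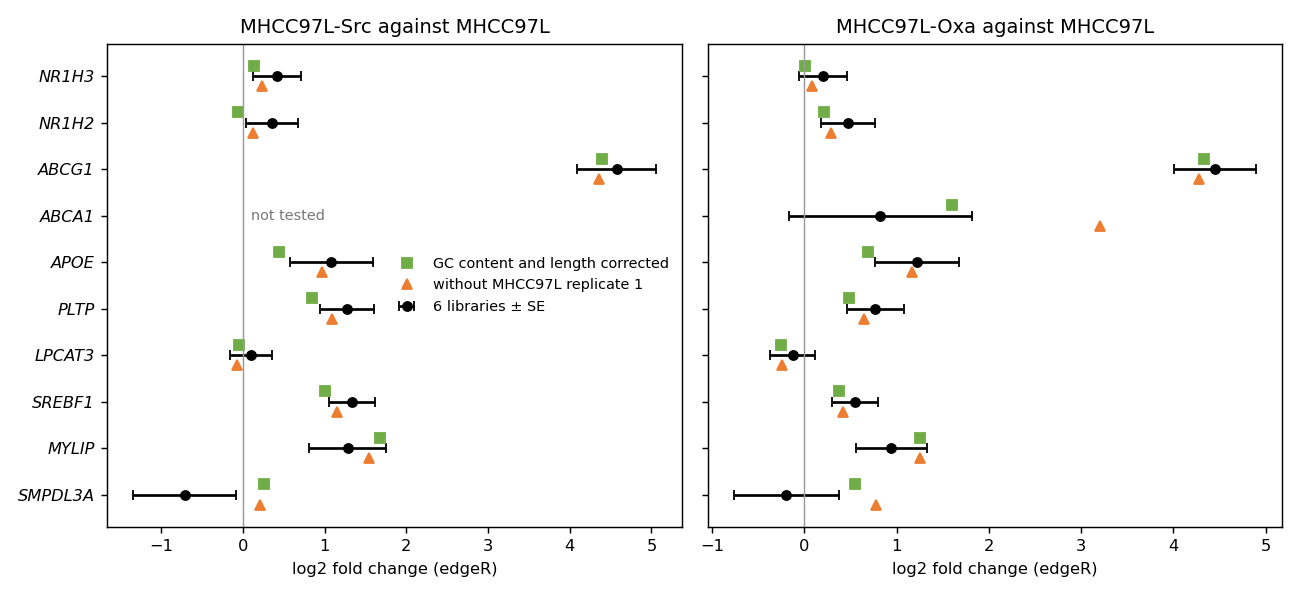
Log2 fold change of each gene against MHCC97L by edgeR for MHCC97L-Src (left) and MHCC97L-Oxa (right), with bars of ± 1 SE around the value from 6 libraries, squares after correction for GC content and length, and triangles without MHCC97L replicate 1. ABCG1 stays between 4.28 and 4.57 in these fits, while SMPDL3A crosses 0 in both lines and NR1H2 and LPCAT3 cross 0 in MHCC97L-Src.

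By edgeR's quasi-likelihood test with Benjamini-Hochberg adjustment over all genes tested, 2 of the 9 members tested had an adjusted p under 0.05 in MHCC97L-Src against MHCC97L, ABCG1 and SREBF1. Among all 12037 genes 2.13% did, 1.43% as higher and 0.698% as lower. In MHCC97L-Oxa against MHCC97L it was 1 of 10, ABCG1, beside 0.953% of all 12064 genes, 0.771% as higher and 0.182% as lower. The groups did not overlap in CPM for 5 of 9 members in MHCC97L-Src, against 29.9% of all genes tested, and for 6 of 10 in MHCC97L-Oxa, against 28.1%. MYLIP and APOE, counted among the 5 in MHCC97L-Src, overlapped in FPKM. The median log2 fold change over the members tested was 1.08 in MHCC97L-Src, where that of all genes tested was -0.16, and 0.66 in MHCC97L-Oxa, where that of all genes was -0.19. The call of SREBF1 was lost when MHCC97L replicate 3 or 1 MHCC97L-Src library was left out, and that of ABCG1 in MHCC97L-Oxa when MHCC97L replicate 3 or 1 MHCC97L-Oxa library, whichever it was, was left out, where its log2 fold change was 4.36 to 4.83. Nothing is read from these shares, since ABCG1 was selected on them and both comparisons share the MHCC97L libraries.

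**Figure D3:**
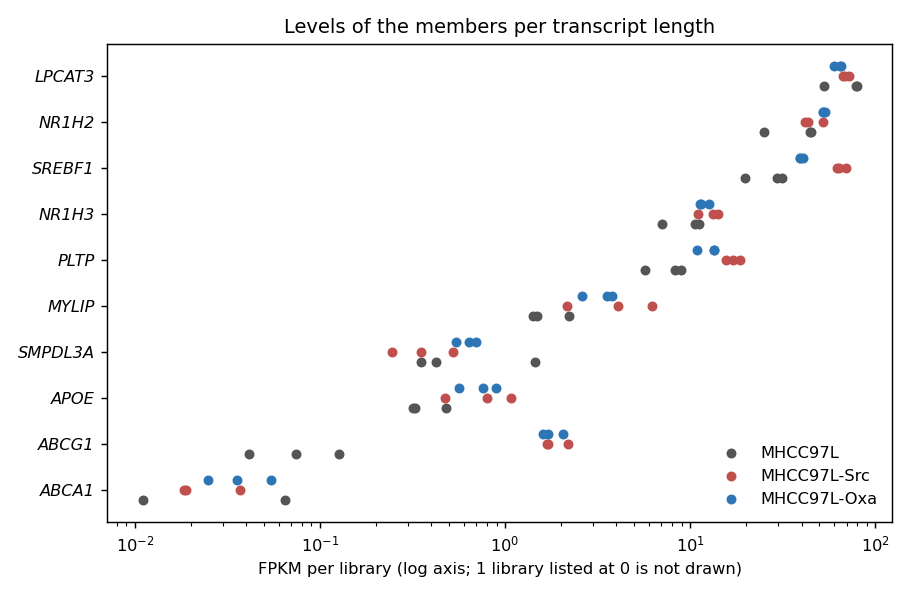
FPKM of each gene in each library (log axis), with genes in the order of their mean in MHCC97L and lines by color. LPCAT3 has the highest and ABCA1 the lowest mean in every line, and ABCG1 moves from below APOE and SMPDL3A in MHCC97L to above both in the resistant lines.

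On the FPKM scale, LPCAT3 had the highest mean of the 10 genes in every line, at 70.5 ± 15.3 in parental cells, 69.5 ± 2.75 in MHCC97L-Src and 63.4 ± 3.05 in MHCC97L-Oxa (SD, n = 3). NR1H2 and SREBF1 followed, and changed places between lines, and libraries of SREBF1 and LPCAT3 overlapped in MHCC97L-Src. NR1H2 was at 38.2 ± 11.3 and SREBF1 at 26.8 ± 6.16 FPKM in MHCC97L, where their libraries overlapped. In MHCC97L-Src, SREBF1 at 65.2 ± 4.01 FPKM was above NR1H2 at 45.7 ± 5.56 FPKM, and in MHCC97L-Oxa NR1H2 at 52.6 ± 0.699 FPKM was above SREBF1 at 40.0 ± 0.856 FPKM, without overlap in either line.

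The middle of the order held NR1H3, PLTP and MYLIP. NR1H3 and PLTP overlapped in MHCC97L and in MHCC97L-Oxa, and MYLIP was below both in each line, at 1.70 ± 0.441 to 4.15 ± 2.01 FPKM. ABCG1 was the ninth of the 10 in MHCC97L, at 0.0809 ± 0.0434 FPKM, and the seventh in the resistant lines, at 1.86 ± 0.293 FPKM in MHCC97L-Src and 1.79 ± 0.245 FPKM in MHCC97L-Oxa. There it stood above APOE and SMPDL3A without overlap, while APOE and SMPDL3A overlapped in every line, as did ABCG1 and ABCA1 in MHCC97L and ABCG1 and MYLIP in MHCC97L-Src. Even so, the mean of SREBF1 was 35.1 times that of ABCG1 in MHCC97L-Src and 22.3 times in MHCC97L-Oxa. Orders and ratios between genes rest on the lengths behind FPKM, which the sources used here do not give. In MHCC97L-Src, ABCG1 had a mean of 28.5 CPM and MYLIP 12.2 CPM, yet ABCG1 was lower in mean FPKM. Their longest transcripts in GENCODE release 29 have 3475 and 2796 bases, so other lengths could change the order and the ratios. ABCA1 was the lowest of the 10 in each line, with means of 0.0249 to 0.0383 FPKM, and the mean of ABCG1 was 3.20 times that of ABCA1 in MHCC97L, 74.7 times in MHCC97L-Src and 46.6 times in MHCC97L-Oxa. The parental value rests on few counts of ABCA1, and it was 18.2 times without MHCC97L replicate 1, 2.22 times without replicate 2 and 1.78 times without replicate 3.

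Next, MHCC97L-Src was compared with MHCC97L-Oxa, which asks whether resistance to the 2 drugs went with the same level of these genes. For ABCG1, which was selected as higher in both of these lines, the difference was within the spread between libraries. Its log2 fold change was 0.12 (SE 0.16, adjusted p = 0.738 by edgeR), with a 95% interval of -0.25 to 0.49, or a level in MHCC97L-Src of 0.843 to 1.40 times that in MHCC97L-Oxa. SREBF1 was 1.72-fold higher in MHCC97L-Src, with a log2 fold change of 0.78 (SE 0.11, 95% interval 0.53 to 1.04, edgeR adjusted p = 0.00432), and was the only one of the 10 genes to pass. Among all 11994 genes tested 4.64% passed, 2.12% as higher and 2.52% as lower, so 1 of 10 lay near that background. With all 9 libraries in one edgeR fit, where the wide spread of MHCC97L enters, the log2 fold change of SREBF1 was 0.79 with an adjusted p of 0.248. Over all alternatives run it was 0.63 to 0.86.

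PLTP was higher in each MHCC97L-Src library than in any of MHCC97L-Oxa, with a log2 fold change of 0.50 (SE 0.15, 95% interval 0.16 to 0.84), and did not pass after adjustment (edgeR adjusted p = 0.104). It passed after correction for GC content and length, at 0.36 (edgeR adjusted p = 0.0469), and without MHCC97L-Src replicate 3, at 0.61 (edgeR adjusted p = 0.0216). NR1H2 also passed after that correction, at -0.27 (edgeR adjusted p = 0.0450). LPCAT3 was also without overlap, at 0.22 (SE 0.11, edgeR adjusted p = 0.290), and SMPDL3A was lower without overlap, at -0.51 (SE 0.34, edgeR adjusted p = 0.443). In all, 4 of 10 members did not overlap, against 26.5% of all genes tested. The remaining 5 gave edgeR adjusted p-values of 0.465 for NR1H3, 0.574 for MYLIP, 0.608 for ABCA1, 0.685 for NR1H2 and 0.878 for APOE. The intervals were wide for the low genes, from -1.61 to 0.58 on the log2 scale for ABCA1 and from -1.07 to 0.77 for APOE.

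**Figure D4:**
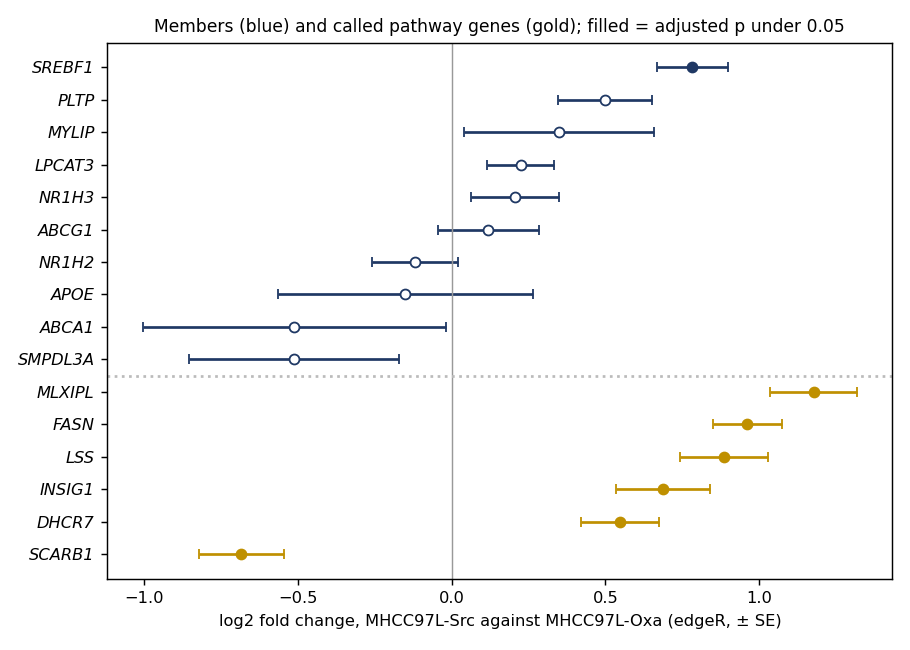
Log2 fold change of MHCC97L-Src against MHCC97L-Oxa by edgeR, ± 1 SE, for the 10 members (above the dotted line) and 6 further pathway genes with an adjusted p under 0.05 (below it), where filled points have an adjusted p under 0.05. SREBF1 at 0.78 is the one filled member, and SCARB1 is the one pathway gene drawn that lies below 0.

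Further genes of lipid synthesis and transport differed in the same contrast. Of 76 pathway genes that are not members, 48 could be tested, and 7 passed, 6 as higher and 1 as lower in MHCC97L-Src, where 4.64% of all genes tested passed. The difference between these shares was not tested. With all 9 libraries in one edgeR fit, MLXIPL kept its call (adjusted p = 0.0438), and the other pathway genes named below as passing between the resistant lines did not, with adjusted p-values of 0.101 for FASN, 0.178 for LSS, 0.335 for INSIG1, 0.666 for DHCR7 and 0.516 for SCARB1. Among 4 further liver X receptor targets tested, FASN, the fatty acid synthase, was higher by 0.96 (SE 0.11, edgeR adjusted p = 0.00114) on the log2 scale, with 7208 to 7885 counts in MHCC97L-Src and 4026 to 4596 in MHCC97L-Oxa. MLXIPL, which encodes the carbohydrate-sensing factor ChREBP, was higher by 1.18 (SE 0.14, edgeR adjusted p = 0.00135). After correction for GC content and length FASN was at 0.85 and MLXIPL at 1.04 (edgeR adjusted p = 0.00338 and 0.00129). SCD and APOC1 were at 0.23 and 0.39 and did not pass.

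Among 15 SREBP2 targets and sterol sensors tested, 4 were higher and 0 lower. LSS, which closes the sterol ring system, was higher by 0.89 (edgeR adjusted p = 0.00698), and INSIG1, a sensor that holds SREBPs back, by 0.69 (edgeR adjusted p = 0.0328). DHCR7, the last enzyme of cholesterol synthesis, was higher by 0.55 (edgeR adjusted p = 0.0395) and is named here after its value was seen. SREBF2, which encodes SREBP2 itself, was at 0.23 and did not pass. Without MHCC97L-Oxa replicate 2 LSS was at 0.85 (edgeR adjusted p = 0.0639). INSIG1 and DHCR7 lost their call without MHCC97L-Src replicate 1 or without any 1 of the MHCC97L-Oxa libraries, with edgeR adjusted p-values of 0.0618 to 0.170 and 0.105 to 0.224. The whole list had a median log2 fold change of 0.14, where that of all genes tested was -0.02.

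The one gene that was lower was SCARB1, the receptor that exchanges cholesterol with HDL, by -0.68 (SE 0.14, edgeR adjusted p = 0.0207), with 11991 to 15096 counts in MHCC97L-Src and 23287 to 23730 in MHCC97L-Oxa. Without MHCC97L-Src replicate 1 or without any 1 of the MHCC97L-Oxa libraries its edgeR adjusted p was 0.0868 to 0.136. It was the only one of 13 trafficking, esterification and lipoprotein receptor genes tested to pass. None of 8 RXR partners and coregulators, 2 oxysterol and bile acid enzymes and 6 other ABCG and ABCA transporters tested passed by edgeR. At an unadjusted p under 0.05 these lists held 1, 0 and 0 genes. Over all 76 genes, DESeq2 also called 7. Shares of all genes at the unadjusted level and by DESeq2 are not given here, so nothing is read from these counts.

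Against MHCC97L, 2 of 48 pathway genes tested were higher and 0 lower in MHCC97L-Src, where 2.13% of all genes tested passed: MLXIPL with a log2 fold change of 1.72 (SE 0.30, edgeR adjusted p = 0.0255) and ABCA3, a lipid transporter of lung surfactant cells, with 1.39 (SE 0.28, edgeR adjusted p = 0.0467). After correction for GC content and length the log2 fold change was 1.30 for MLXIPL and 1.13 for ABCA3. In fits without that correction, both calls were lost without MHCC97L replicate 3 or without any 1 of the MHCC97L-Src libraries, with edgeR adjusted p-values of 0.105 to 0.154 for MLXIPL and 0.145 to 0.205 for ABCA3. At an unadjusted p under 0.05 there were 18, and DESeq2 called 12. In MHCC97L-Oxa, 0 of 48 passed by edgeR, beside 0.953% of all genes tested, with 11 at an unadjusted p under 0.05 and 6 called by DESeq2. ABCA3 was at 1.41 there without passing. For the unadjusted and DESeq2 counts of both lines, the share of all genes is not given here. Nothing is read from those counts. Over the 48 genes the median log2 fold change was 0.18 for MHCC97L-Src and 0.03 for MHCC97L-Oxa.

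The partners of the receptors showed no difference past the threshold. Against MHCC97L, RXRA was at 0.16 and 0.08 on the log2 scale in MHCC97L-Src and MHCC97L-Oxa, and RXRB at 0.53 and 0.50, and neither passed (edgeR adjusted p = 0.699, 0.857, 0.247 and 0.267). RXRG had at most 4 counts. Other classic liver X receptor targets were not detectable in any line: ABCG5, ABCG8, APOC2, APOC4 and CD5L had no count in any of the 9 libraries. Among the enzymes that make or break down oxysterols, CH25H, CYP7A1 and CYP7B1 had no count, and CYP27A1, CYP39A1 and CYP46A1 had 0 to 6 counts per library. ABCG4, the nearest relative of ABCG1, had 0, 0 and 1 counts in parental libraries, 2, 2 and 0 in those of MHCC97L-Src and 7, 3 and 5 in those of MHCC97L-Oxa, too few to be tested.

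**Figure D5:**
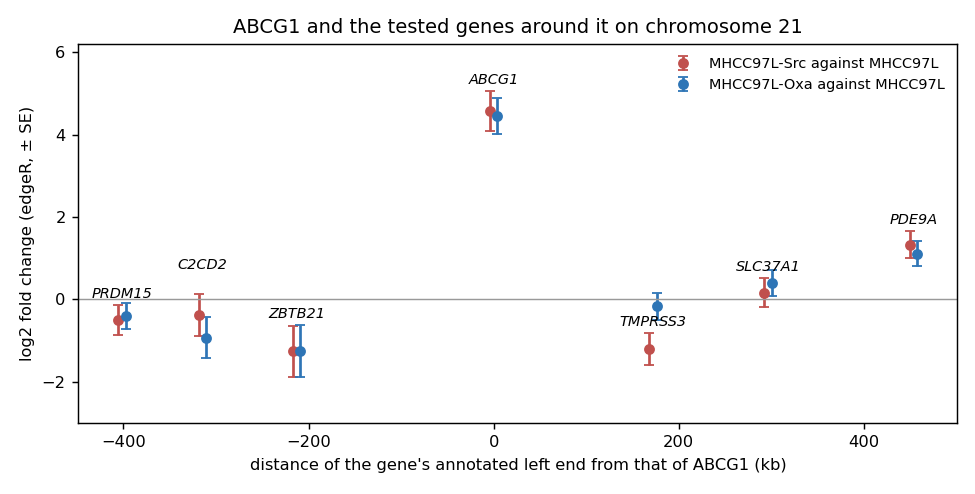
Log2 fold change against MHCC97L by edgeR, ± 1 SE, of ABCG1 and the 6 tested genes nearest to it on chromosome 21, by the distance in kilobases between the annotated left ends of the genes. ABCG1 stands at 4.57 and 4.45, and the other 6 genes lie between -1.26 and 1.33.

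The genes beside ABCG1 on chromosome 21 had smaller differences from MHCC97L. Of 12 genes from PRDM15, 401.5 kb to the left, to PDE9A, 453.9 kb to the right, 6 could be tested, and none passed against MHCC97L by edgeR, with 2 at an unadjusted p under 0.05 in MHCC97L-Src and 1 in MHCC97L-Oxa. PDE9A, a cyclic GMP phosphodiesterase, was at 1.33 (SE 0.32, edgeR adjusted p = 0.0787) and 1.11 (SE 0.30, edgeR adjusted p = 0.144). The nearest tested genes, TMPRSS3 and ZBTB21, were at -1.20 and -1.26 in MHCC97L-Src and at -0.17 and -1.26 in MHCC97L-Oxa. TFF1, TFF2 and TFF3, which lie between them, and UBASH3A, to the right of TMPRSS3, had no count in any library. TMPRSS3, a membrane serine protease, was lower in MHCC97L-Src than in MHCC97L-Oxa by -1.03 (SE 0.19, edgeR adjusted p = 0.0116), with 101 to 109 against 227 to 238 counts. This call was lost without MHCC97L-Src replicate 1 or without any 1 of the MHCC97L-Oxa libraries, at an edgeR adjusted p of 0.0529 to 0.0877, and with all 9 libraries in one fit, at 0.220.

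Across the 9 libraries, the genes whose log2 CPM followed that of ABCG1 most closely, out of 12281 compared, were LOC100130370 (Pearson's r 0.995), MFSD2A (0.994), GSTO2 (0.993), CD14 (0.987) and SMOC1 (0.986). The points share 3 lines, so these values mostly describe the step between the parental and the resistant libraries, and they are given without a p. MFSD2A, a transporter of lysophospholipids, had 55 to 79 counts in MHCC97L, 335 to 357 in MHCC97L-Src and 307 to 337 in MHCC97L-Oxa. SMOC1, a secreted calcium-binding matrix protein, had 2056 to 3009, 11492 to 12622 and 10061 to 11101 counts. None of the other 9 members was near these values. PLTP had the highest r among them, 0.873, at rank 693, followed by APOE at 0.835, SREBF1 at 0.811 and MYLIP at 0.786, and SMPDL3A had an r of -0.229.

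Finally, the lines were checked against marker genes. The label of hepatoma cells was not borne out by liver secretory genes: ALB, AFP, TTR and AHSG had no count in any library. HNF4A had 2 to 13 counts, and GPC3 had a mean of at most 0.0165 CPM in a line. KRT8 and KRT18 had 22160 to 69315 counts, and these keratins alone do not settle the label. The summed level of the 11 hepatocyte and hepatoma markers, of which 3 to 5 exceeded the floor in a line, was 2939 to 5827 CPM in MHCC97L, 4553 to 7161 in MHCC97L-Src and 2969 to 3228 in MHCC97L-Oxa. Nearly all of this level was KRT8 and KRT18. KRT8 and KRT18 were higher in MHCC97L-Src than in MHCC97L-Oxa (0.87 and 0.91 on the log2 scale, edgeR adjusted p = 0.0136 and 0.00471), as SREBF1 was. SERPINA1 had 1, 1 and 1 counts in parental libraries, 22, 9 and 10 in those of MHCC97L-Src and 31, 14 and 14 in those of MHCC97L-Oxa (edgeR adjusted p = 0.0323 for MHCC97L-Oxa, and 0.152 to 0.207 without MHCC97L replicate 3 or without any 1 of the MHCC97L-Oxa libraries). When MHCC97L-Src replicate 1, or whichever MHCC97L-Oxa library, was left out, KRT8 had an edgeR adjusted p of 0.0535 to 0.106. With all 9 libraries in one edgeR fit neither KRT8 nor KRT18 passed (adjusted p = 0.377 and 0.228).

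ABCG1 is also a gene of macrophages, and the defining leukocyte and macrophage markers PTPRC, CD163 and AIF1 had no count in any library. Of the 8 macrophage markers, 3 to 5 exceeded the floor in a line. Their summed level was 52.1 to 92.8 CPM in MHCC97L, 77.7 to 111 in MHCC97L-Src and 157 to 160 in MHCC97L-Oxa, most of it CD68, a lysosomal protein. CD14, the lipopolysaccharide co-receptor, moved with ABCG1, with 16, 18 and 20 counts in parental libraries, 97, 104 and 100 in those of MHCC97L-Src, and 91, 79 and 87 in those of MHCC97L-Oxa. Its log2 fold change was 2.58 (SE 0.43, edgeR adjusted p = 0.0236) and 2.24 (SE 0.39, edgeR adjusted p = 0.0428), and 2.12 and 1.90 after correction for GC content and length. Both calls were lost without MHCC97L replicate 3 or without any 1 library of the resistant line compared, at edgeR adjusted p-values of 0.105 to 0.115 and 0.164 to 0.263. The part of the cells that hold CD14 in the values of ABCG1 was not tested. Not every macrophage marker was higher in the resistant lines. CSF1R fell from a parental mean of 11.3 CPM to 2.53 CPM after resistance to saracatinib and 7.51 CPM after resistance to oxaliplatin, without overlap. Its log2 fold change was -2.20 (edgeR adjusted p = 0.0544) and -0.64 (edgeR adjusted p = 0.278). MARCO fell from a mean of 1.01 to 0.0773 and 0.504 CPM, with overlap in MHCC97L-Oxa. CD68 was higher, by 0.36 with overlap and 1.11 without (edgeR adjusted p = 0.419 and 0.0961). Between the resistant lines CD68 was lower by -0.75 and CSF1R by -1.57 in MHCC97L-Src (edgeR adjusted p = 0.0116 and 0.0135). These calls were lost without MHCC97L-Src replicate 1 or MHCC97L-Oxa replicate 1 or 2, and that of CD68 also without MHCC97L-Oxa replicate 3, at edgeR adjusted p-values up to 0.0763 and 0.0753. Of 7 endothelial and stromal markers, 4 to 5 exceeded the floor and KDR had no count. Their summed level was 104 to 177 CPM in MHCC97L, 80.5 to 89.0 in MHCC97L-Src and 139 to 154 in MHCC97L-Oxa, and DCN was lower in MHCC97L-Src than in MHCC97L-Oxa by -1.89 (edgeR adjusted p = 0.00294). With all 9 libraries in one edgeR fit DCN, CD68 and CSF1R lost their calls between the resistant lines, at adjusted p-values of 0.111, 0.340 and 0.137.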

How the data were processed

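Stranded, poly(A)-selected, paired-end RNA libraries were made 3 times from each of MHCC97L, MHCC97L-Src and MHCC97L-Oxa. The submitters' processing notes name Trimmomatic 0.36, HISAT2 and GRCh38.p12; the counting program, its strand setting and the annotation are not given in the sources used here. The authors deposited raw counts per gene for 20030 genes, and the authors also deposited FPKM values for the same genes, normalized to transcript length and library size. FPKM was not a plain rescaling, with 245 to 297 genes in a library counted and yet listed at an FPKM of 0.

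The members and all gene lists were chosen with earlier results of these data known. Libraries were grouped by the drug in their label. For each of 3 pairs of lines, the counts of 6 libraries entered the quasi-likelihood test of edgeR, with TMM normalization, filterByExpr (minimum count 10) and Benjamini-Hochberg adjustment over all genes tested, at a threshold of 0.05. SE was taken from the log2 fold change and the F statistic, and 95% intervals use the residual degrees of freedom of the fit. Pearson's correlation with ABCG1 used log2 CPM (prior count 2) of genes with at least 10 counts in 3 or more libraries. The GC content and length of 19459 genes came from GENCODE release 29, and their correction entered edgeR as spline offsets (5 degrees of freedom each). In a replicate comparison by chi-square, no 2 libraries of a line were alike within sampling noise.

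Named genes are the 10 members, the 3 genes with the smallest adjusted p under 0.05 in each list and comparison, RXRA, RXRB, ABCG4 and the 5 genes most correlated with ABCG1; further listed genes are named for their level or position, and some listed genes enter the counts and medians of their lists but are not reported here by name. Alternatives were DESeq2, its size factors or total counts, other filters, all 9 libraries, the replicate block, limma-trend on log2(FPKM + 1) and log2(FPKM + 0.1), the GC and length correction with and without the block, and leaving out each library. Tested on simulated data with 200 genes changed 4-fold, edgeR recovered 200 between the resistant lines and 11 between MHCC97L-Src and MHCC97L. The dispersion, the spread beyond counting noise, was set by hand at 0.03 and 0.3, the same for all genes, and not estimated from these libraries. Unchanged genes called were 12 and 0. Fits ran in R 4.3.3 with DESeq2 1.42.0, limma 3.58.1 and edgeR 4.0.16, and summaries and plots in Python 3.11.15 with SciPy 1.17.1, matplotlib 3.10.9 and pandas 2.3.3.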

Additional observations from a re-analysis of the deposited data

Results flagged for a closer look

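The difference from MHCC97L was not the same in both resistant lines for SREBF1. The test of this difference is the contrast of MHCC97L-Src with MHCC97L-Oxa, where the log2 fold change was 0.78 (SE 0.11, edgeR adjusted p = 0.00432), higher in 3 of 3 libraries. With all 9 libraries in one edgeR fit it was 0.79 and did not pass (adjusted p = 0.248). KRT8 and KRT18 were higher in MHCC97L-Src in the same contrast, and their part in the result was not tested. No other member passed this test with the 6 libraries of these lines, while PLTP and NR1H2 passed after correction for GC content and length, and PLTP also without MHCC97L-Src replicate 3. Groups of 3 libraries were not searched for single libraries far from the others.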

How the results depend on the processing

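Counts of members past the threshold were 2 in MHCC97L-Src, 1 in MHCC97L-Oxa and 1 between the resistant lines, and counts of pathway genes were 2, 0 and 7. For members in MHCC97L-Src the count was 4 with DESeq2, with all 9 libraries or with the GC content and length correction, and 1 with at least 10 counts in every library. In MHCC97L-Oxa the correction gave 2, and between the resistant lines it gave 3, while all 9 libraries gave 0. Leaving out 1 library gave 1 to 3, 0 to 5 and 1 to 2 members, with 5 without MHCC97L replicate 1.

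For pathway genes in MHCC97L-Src the count was 12 with DESeq2, 8 with all 9 libraries or the correction, and 3 with total counts, no filter or log2(FPKM + 0.1), and it was 1 with at least 10 counts in every library, with log2(FPKM + 1) or with the correction and block together. In MHCC97L-Oxa it was 6 with DESeq2 or the correction, 4 with all 9 libraries, 3 with either FPKM pseudocount or with the correction and block together, 2 with total counts, and 1 with DESeq2's size factors or no filter. Between the resistant lines it was 11 with the correction and 1 with all 9 libraries. Leaving out 1 library gave 0 to 17, 0 to 14 and 3 to 10 pathway genes. The cause of these shifts was not tested. Counts of members and pathway genes in each alternative are not set beside the share of all genes in the same fit. Nothing about these genes is read from the shifts. Over all genes, the main counts of 256, 115 and 556 ranged over the alternatives from 22 to 3419, from 2 to 2705 and from 86 to 1617, lowest in the first 2 when MHCC97L replicate 3, or a library of the resistant line, was left out, and highest without MHCC97L replicate 2.

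With the replicate number as a block, pathway genes past the threshold were 4, 0 and 6, and members 2, 1 and 1. Across genes, libraries with the same number deviated from the mean of their line with correlations of -0.650 to 0.217, -0.215 to 0.444 and -0.291 to 0.0308. For libraries with different numbers these were -0.526 to 0.658, -0.369 to 0.452 and -0.202 to 0.279. With 3 libraries per line, these ranges cannot tell whether same-numbered libraries were prepared together.

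Log2 fold changes turned direction in 19 fits, and none of these genes passed the threshold in them. In MHCC97L-Src against MHCC97L, NR1H2 turned to -0.056 with the correction and -0.051 with the correction and block. LPCAT3 turned to -0.048 and -0.036, and leaving out 1 library gave -0.073 to 0.28. SMPDL3A turned to 0.26 and 0.28, and leaving out 1 library gave -0.999 to 0.21. In MHCC97L-Oxa against MHCC97L, SMPDL3A turned to 0.54 with the correction, 0.58 with the correction and block, 0.075 with the block alone and 0.014 with log2(FPKM + 0.1), and leaving out 1 library gave -0.48 to 0.78 for SMPDL3A and -0.25 to 0.083 for LPCAT3. Between the resistant lines, APOE turned to 0.028 with log2(FPKM + 1) and 0.035 with log2(FPKM + 0.1), and leaving out 1 library gave -0.35 to 0.13 for APOE and -0.00019 to 0.61 for MYLIP. ABCG1, SREBF1, PLTP and NR1H3 kept their direction in every fit run. In edgeR fits ABCG1 ranged from 4.36 to 4.94 in MHCC97L-Src when 1 library was left out. Against MHCC97L it was 1.40 and 1.36 on the log2(FPKM + 1) scale and 3.45 and 3.40 on the log2(FPKM + 0.1) scale, since a pseudocount shrinks the change of a gene this low.

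Depth limited ABCA1 and APOE, at 0 to 27 counts per library. In data simulated for MHCC97L-Src and MHCC97L at a dispersion set by hand at 0.3, 11 of 200 genes changed 4-fold were recovered. That dispersion was not estimated from these libraries, so the share recovered does not carry over to the real comparison.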
